A study of Mus musculus with 4 samples.

Results

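Imprinted genes are transcribed mainly from 1 parental chromosome, and the set described here was followed in mouse morulae depleted of Nr1h2. The set named 10 genes, 7 expressed from the paternal allele (Snrpn, Peg3, Impact, Sgce, Plagl1, Zrsr1 and Mest) and 3 from the maternal allele (Igf2r, Grb10 and H19), and was matched by gene symbol. Of these, 9 had values among the 13658 genes of the authors' deposited table, and H19 was not analysed here. RNA came from 4 samples of morulae, embryos of the stage just before the blastocyst, all labelled wild-type: 2 siNT samples, which received non-targeting siRNA, and 2 siNr1h2 samples, which received a siRNA pool against Nr1h2, the gene of the oxysterol receptor LXRβ. Both groups were injected as fertilized eggs with 4 to 5 pL of siRNA at 100 µM and grown in M16 medium. The number of embryos per sample and the origin of the replicates are not stated, so the p-values reflect only how far these samples scattered, and that scatter may be partly technical. Values were available as 1 comparison over all samples, so no value per sample can be shown and the depth of each sample is unknown.

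An imprint is laid down in the germ line as DNA methylation of the maternal or the paternal copy of a control region. It survives the wave of demethylation after fertilization because ZFP57 and ZFP445 bind the methylated copy and recruit TRIM28, the histone methyltransferase SETDB1 and DNA methyltransferases to it. Many imprinted genes act on growth, and paternally expressed genes often promote it while maternally expressed genes often restrain it. At a smaller set of loci the maternal copy is silenced by histone H3 lysine methylation instead, which is called noncanonical imprinting. The RNA counts used here do not separate the parental alleles, so a change of total RNA and a change of allelic usage cannot be told apart. In bulk samples, fewer cells of a type and less RNA per cell cannot be told apart either. In mouse embryos before implantation some of these genes, Igf2r among them, are known to be transcribed from both alleles.

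In the authors' deposited table, knockdown lowered Nr1h2 itself 5.03 times (95% interval 3.89 to 6.50). All 8 markers of the morula and its lineages, such as Pou5f1, Nanog, Cdx2 and Dppa5a, were present in the authors' deposited table, with mean normalized counts between 90.8 and 58013 and 0 of 8 past an adjusted p of 0.05 (1 of 8 at an unadjusted p under 0.05). Of 10 cumulus and granulosa cell markers, 3 had values in the authors' deposited table, Star at a mean normalized count of 29.6, Cyp19a1 at 2.89 and Foxl2 at 1.94. All 3 lay below 0 on the log2 scale (-0.74 to -1.56 in the authors' deposited table) and had unadjusted p-values above 0.05. Star did not pass, and Cyp19a1 and Foxl2 lacked an adjusted p. Of 6 oocyte genes, 5 had mean normalized counts of 15.4 to 78.1 in the authors' deposited table and none passed. At an unadjusted p under 0.05 were 2 of them, Zp3 (-0.73 ± 0.32) and Bmp15 (-1.42 ± 0.66). Over all 12069 genes with an adjusted p, 1.98% were called and 13.3% had an unadjusted p under 0.05. On marker lists of 5 and 8 genes such counts rest on 1 or 2 genes. Only means over both groups are given, so the level of these markers in each group is unknown, and their part in the results was not tested.

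The members were transcribed at very different levels. On the scale of mean normalized counts per kilobase of exon, Snrpn, which encodes the spliceosomal protein SmN, was highest at 1309, followed by Impact at 173 and Igf2r at 172. Mest at 34.9, Zrsr1 at 25.9 and Sgce at 20.6 formed a middle group, and Peg3 at 8.74, Grb10 at 7.98 and Plagl1 at 7.96 were lowest. These levels are means over all 4 samples with no spread, so the order of close neighbours such as Impact and Igf2r, or Peg3, Grb10 and Plagl1, cannot be tested. Exon lengths came from a later annotation than the authors used and count all exons of a gene, which lowers the level of genes with many transcripts. Per gene, the mean normalized counts in the authors' deposited table ran from 62.2 for Plagl1 to 2826 for Snrpn, against a median of 142 over all genes.

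**Figure D1:**
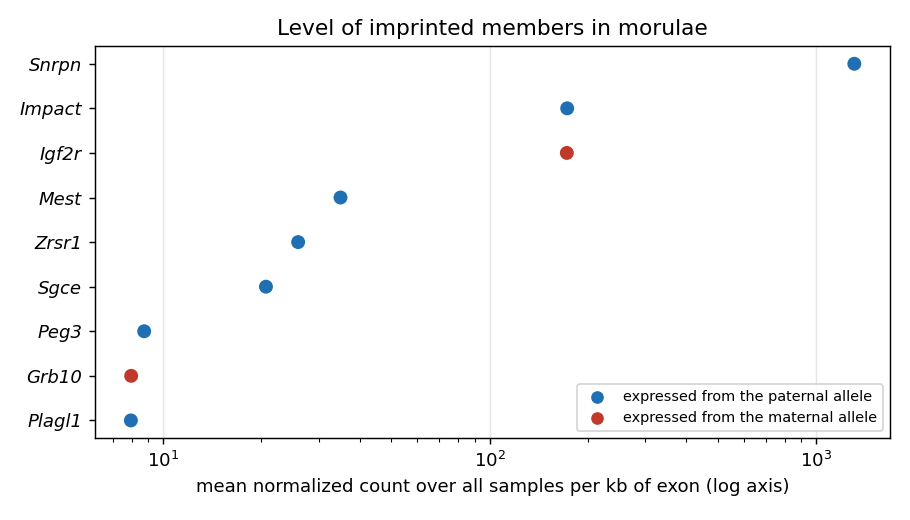
Level of each imprinted member in morulae, as the mean normalized count over all 4 samples divided by the kilobases of annotated exon, on a log axis, coloured by the expressed allele; no spread is available. Snrpn lies at 1309, Impact and Igf2r near 172 and the other 6 genes below 35.

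None of the 9 members changed past the threshold after Nr1h2 knockdown. In the DESeq2 comparison of the authors' deposited table, the count was 0 of 9 at an adjusted p under 0.05 and 1 of 9, Igf2r, at an unadjusted p under 0.05. Over all 12069 genes with an adjusted p, 1.98% were called and 13.3% had an unadjusted p under 0.05, so a list of 9 genes without a call does not stand apart from the rest. The members had log2 fold changes between -0.21 and 0.31 and a median of -0.01, beside a median of 0.00 over all tested genes. Regardless of sign, their median size was 0.21, beside 0.17 for the 7685 tested genes with means in the members' range. The 95% intervals rest on the normal distribution and would be wider under a t distribution with 2 degrees of freedom. Each group held only 2 samples, and the genes within the limits below were not recounted under that distribution. The statement on size therefore depends on the normal approximation. For all 9 genes the 95% interval lay within a change of 2 times in either direction, and for 4 of them, Snrpn, Impact, Sgce and Igf2r, within 1.5 times. Given its standard error, the estimated change of a member had to reach between 1.31 times (Snrpn) and 2.30 times (Plagl1) to be called. A true change of that size, or somewhat above it, could still be missed.

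**Figure D2:**
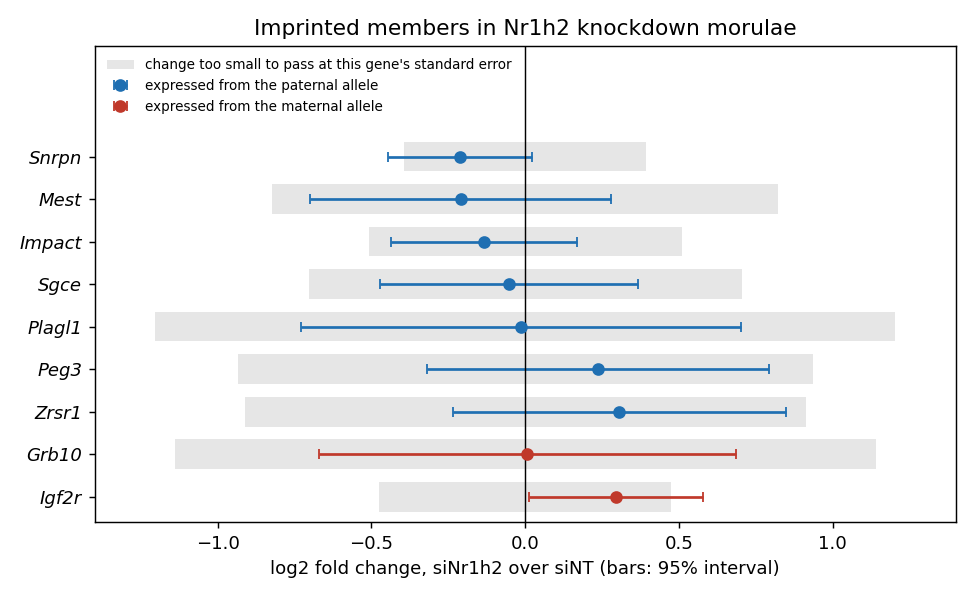
Log2 fold change of each imprinted member (points) with its 95% interval (bars), siNr1h2 over siNT, coloured by the expressed allele; the grey band is the range of changes too small to pass an adjusted p of 0.05 at that gene's standard error. All 9 points lie inside their grey band, between -0.21 and 0.31.

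Among the paternally expressed genes, 5 of 7 had log2 fold changes below 0 and the median was -0.05, without a call. Snrpn on chromosome 7 had the most precise value, -0.21 ± 0.12 (SE) as a log2 fold change from the authors' deposited table, that is 0.86 times the siNT level with a 95% interval of 0.73 to 1.02 (adjusted p = 0.442). Mest on chromosome 6, a gene of the alpha/beta hydrolase fold that is linked to fat storage and growth, had nearly the same value with a wider error, -0.21 ± 0.25 in the authors' deposited table (0.62 to 1.21 times). Impact on chromosome 18, whose product restrains the amino acid sensor kinase GCN2, stood at -0.14 ± 0.15 in the authors' deposited table (0.74 to 1.12 times). These intervals include no change for all 3 genes.

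Sgce on chromosome 6, which encodes the membrane protein epsilon-sarcoglycan, stood at -0.05 ± 0.21 in the authors' deposited table (0.72 to 1.29 times). Plagl1 on chromosome 10, a zinc finger transcription factor that regulates other imprinted genes including H19 and Igf2, stood at -0.01 ± 0.37 in the authors' deposited table. The Plagl1 interval ran from 0.60 to 1.63 times, the widest among the members. The remaining paternally expressed genes lay above 0. Peg3 on chromosome 7, a large zinc finger protein, stood at 0.24 ± 0.28 in the authors' deposited table (0.80 to 1.73 times). Zrsr1 on chromosome 11, an intronless gene related to the small subunit of the splicing factor U2AF, stood at 0.31 ± 0.28 in the authors' deposited table (0.85 to 1.80 times, adjusted p = 0.702). Reads of Zrsr1 could be shared with its non-imprinted relative on the X chromosome, so its value is uncertain.

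Of the maternally expressed genes, Igf2r gave the smallest p of all members. This gene on chromosome 17 encodes the receptor that takes up insulin-like growth factor 2 and carries mannose 6-phosphate tagged enzymes to lysosomes. It stood at 0.29 ± 0.14 on the log2 scale in the authors' deposited table, or 1.23 times the siNT level with a 95% interval of 1.01 to 1.49. The unadjusted p was 0.0414 and the adjusted p 0.354 in the authors' deposited table, so it did not pass. Grb10 on chromosome 11, an adaptor that dampens insulin and insulin-like growth factor receptor signalling, stood at 0.01 ± 0.35 in the authors' deposited table (0.63 to 1.61 times). The maternally expressed genes with values thus number only 2, with a median log2 fold change of 0.15, and no test between the alleles was made.

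Germ line imprints lie at CpG-rich control regions, several of which are promoters of the members. RefSeq promoter windows of 300 bases in build GRCm38.p6, from 250 bases before to 50 after a start site, were found for 7 of the 10 members, in 13 windows. The hexamer TGCCGC, which ZFP57 binds when its CpG is methylated, was searched on both strands and lay in a window of 4 of these 7 genes, Snrpn, Plagl1, Mest and Grb10, and in 5 of the 13 windows, beside 11.6% of all 32851 windows. In the part before the start site alone, only Plagl1 and Mest held it, beside 8.68% of all windows. Genes with several windows have more chances of a match, and 2 of the Mest windows overlap almost wholly. The hexamer contains a CpG, and the shares over all windows were not matched for CpG content. Whether the members hold it more often was not tested. The half-site AGGTCA of nuclear receptors, on both strands, was found in 1 member, Igf2r, beside 16.3% of all windows. The LXR element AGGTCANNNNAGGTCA, which contains that half-site, was found in 0 of the 13 windows and in 0.0152% of all. Only exact matches were searched, and these are rare over all windows. Their absence therefore says nothing on binding in these windows or elsewhere. At least 1 window of 6 of the 7 genes held more CpG dinucleotides than the median window with 7, up to 34 for Igf2r and 45 for Grb10. The windows were placed by start site and not compared with the imprint control regions, so a window need not be one.

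The 250 bases before the start site are shown 5′ to 3′ on the gene's strand for the pair of members with the hexamer there and for Igf2r, the member with the smallest p. They are followed by those of Phlda2, an imprinted gene outside the set that was lower and is described after them. Capitals mark TGCCGC or its reverse complement in Plagl1 (chr10:13090582-13090831, plus strand) and Mest (chr6:30737800-30738049, plus strand), and AGGTCA in Igf2r (chr17:12769707-12769956, minus strand). Phlda2 (chr7:143502525-143502774, minus strand) held neither and has no capitals.
Plagl1: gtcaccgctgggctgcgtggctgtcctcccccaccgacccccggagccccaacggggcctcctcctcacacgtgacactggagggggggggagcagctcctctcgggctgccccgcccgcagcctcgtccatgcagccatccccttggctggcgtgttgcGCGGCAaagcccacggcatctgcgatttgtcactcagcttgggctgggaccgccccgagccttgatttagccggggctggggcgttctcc
Mest: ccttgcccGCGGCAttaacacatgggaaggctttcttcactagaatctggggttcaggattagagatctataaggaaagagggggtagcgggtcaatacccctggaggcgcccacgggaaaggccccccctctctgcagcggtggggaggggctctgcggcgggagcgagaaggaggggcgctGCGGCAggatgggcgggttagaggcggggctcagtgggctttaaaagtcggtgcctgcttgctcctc
Igf2r: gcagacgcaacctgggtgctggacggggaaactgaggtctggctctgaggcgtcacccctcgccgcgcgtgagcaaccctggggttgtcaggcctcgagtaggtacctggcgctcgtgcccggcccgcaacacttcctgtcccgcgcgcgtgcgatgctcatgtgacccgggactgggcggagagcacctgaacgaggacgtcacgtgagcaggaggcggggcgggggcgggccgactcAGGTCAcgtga
Phlda2: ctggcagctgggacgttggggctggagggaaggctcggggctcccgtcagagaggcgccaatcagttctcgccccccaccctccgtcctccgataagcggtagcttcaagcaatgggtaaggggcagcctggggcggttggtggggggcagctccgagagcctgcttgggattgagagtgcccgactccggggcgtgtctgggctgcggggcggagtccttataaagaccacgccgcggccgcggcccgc
The match in Plagl1 begins 90 bases before the start site. Those in Mest begin 242 and 67 bases before it, and the half-site in Igf2r begins 11 bases before it. Plagl1 and Mest, with the hexamer, stood at -0.01 and -0.21 on the log2 scale in the authors' deposited table, and Igf2r, with the half-site, at 0.29.

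Neighbours in the same imprinted clusters as the members were described next. Of 32 such partner genes, 17 had values in the authors' deposited table, where 0 of 16 with an adjusted p were called by DESeq2 and 0 of 17 had an unadjusted p under 0.05, with a median log2 fold change of 0.01. At the shares over all genes, 1.98% called and 13.3% with such a p, lists of this size do not stand apart. In the Snrpn cluster, Snurf, which shares its transcript with Snrpn, stood at -0.19 ± 0.12 at a mean normalized count of 2792 in the authors' deposited table. That mean is close to the 2826 of Snrpn, and the 2 symbols are not independent measurements. Ube3a, a ubiquitin ligase expressed from the maternal allele in neurons, stood at -0.04 ± 0.14 in the authors' deposited table. Ndn and Mkrn3 had means of 13.6 and 8.27 and stood at 0.90 ± 0.74 and 0.44 ± 0.92 in the authors' deposited table.

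Next to Peg3, Usp29 stood at -0.37 ± 0.39 and Zim3 at -0.94 ± 0.72 in the authors' deposited table. Around Sgce, the retrotransposon-derived Peg10 stood at 0.32 ± 0.75, Ppp1r9a at 0.57 ± 0.38, Pon2 at 0.10 ± 0.26 and Pon3 at 0.04 ± 0.82 in the authors' deposited table. Casd1 at -0.07 ± 0.38 and Asb4 at 0.01 ± 0.40 in the authors' deposited table complete that cluster. Commd1, in whose intron Zrsr1 lies, stood at -0.10 ± 0.13 at a mean of 1524 in the authors' deposited table, beside 116 for Zrsr1. Copg2, which runs against Mest, stood at 0.07 ± 0.21 in the authors' deposited table. Around Grb10, Ddc stood at -0.42 ± 0.28, and Cobl, which lacked an adjusted p, at -0.38 ± 1.24, in the authors' deposited table. Igf2, the fetal growth factor next to H19, had a mean normalized count of 17.9 and stood at 0.22 ± 0.68 in the authors' deposited table. The library kit does not mark strand, and in the later annotation 68.8% of the exon bases of Zim3 overlap Usp29, 23.1% of those of Mest overlap Copg2 and 9.17% of those of Zrsr1 overlap Commd1, so reads of these pairs may be mixed.

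A pair of imprinted genes outside the set, both known for roles in the placenta, was lower in siNr1h2 morulae. Phlda2, a maternally expressed gene with a pleckstrin homology domain that restrains growth of the placenta, was 3.08 times lower (95% interval 2.27 to 4.19), or -1.62 ± 0.23 on the log2 scale, with an adjusted p of 5.40e-10 in the authors' deposited table. Slc38a4, an amino acid transporter that is expressed from the paternal allele through noncanonical imprinting, was 1.64 times lower (1.31 to 2.06), at -0.71 ± 0.17 with an adjusted p of 0.00313 in the authors' deposited table. Their mean normalized counts were 345 and 446 in the authors' deposited table. Ranked by size among the called lower genes whose mean reached 50, Phlda2 was number 17 of 160 and Slc38a4 number 73.
They were the called genes among 72 imprinted genes other than the members, of which 49 had values and 44 an adjusted p. That is 4.55% called, all of it lower, beside 1.98% of all genes called and 1.52% called lower, a share that rests on 2 genes. The gene lists were chosen with earlier results of these data known, so this share cannot be read as an excess. With the members included, 3.77% were called. Of the 49, 6 had an unadjusted p under 0.05, beside 13.3% of all genes with an adjusted p, so the list does not stand apart by that count. The median log2 fold change of the 49 was 0.01. Slc38a4 was not called under Holm adjustment, and neither gene was called with p-values from the t distribution on 2 degrees of freedom, under which no gene of the table passed. The 3 of 10 cumulus cell markers with values, at mean normalized counts of 1.94 to 29.6, also lay below 0, without a call. A link to Phlda2 or Slc38a4 was not tested.

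**Figure D3:**
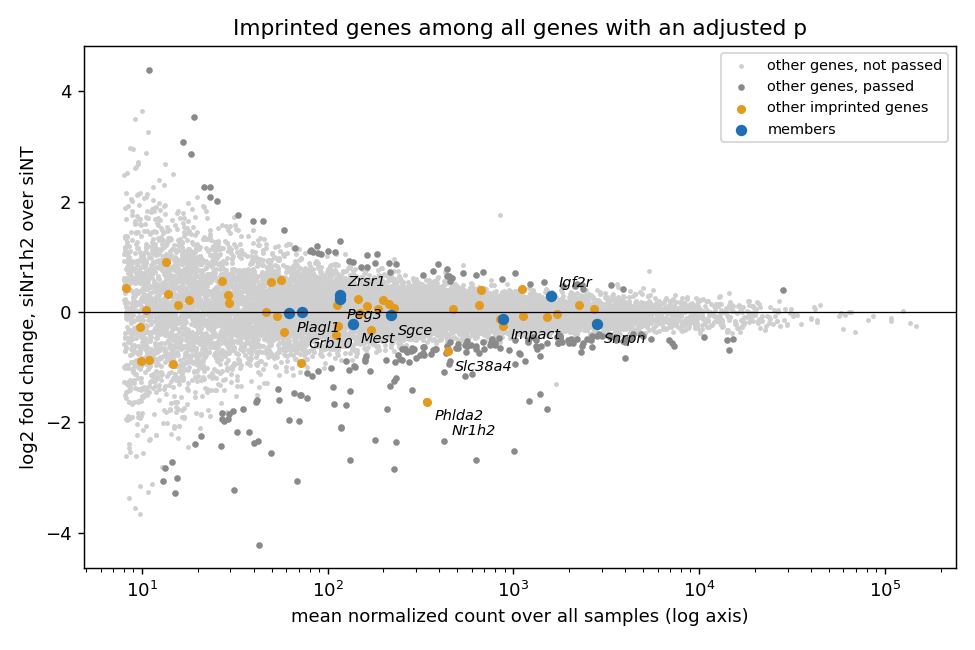
Log2 fold change, siNr1h2 over siNT, against the mean normalized count (log axis) for the 12069 genes with an adjusted p; members are blue, other imprinted genes orange, and dark grey points are other genes with an adjusted p under 0.05. The members lie between -0.21 and 0.31, and Phlda2 at -1.62 and Slc38a4 at -0.71 lie among the lower genes.

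Phlda2 lies in the Kcnq1 cluster on chromosome 7, where the paternal long RNA Kcnq1ot1 silences neighbouring genes. Of 11 listed genes of that cluster 8 had values, and Phlda2 was the 1 called (12.5%), beside 1.98% of all genes. The grouping was chosen after the values were seen and the share rests on 1 gene, so it does not describe the cluster. Kcnq1ot1 stood at -0.32 ± 0.23 and the cell cycle inhibitor Cdkn1c, also maternally expressed, at -0.26 ± 0.29 in the authors' deposited table. The other maternally expressed genes of the cluster had values above 0 for Nap1l4 (0.13 ± 0.15), Cd81 (0.21 ± 0.23), Tssc4 (0.24 ± 0.25) and Ascl2 (0.17 ± 0.50), a transcription factor of the trophoblast lineage, and below 0 for Osbpl5 (-0.28 ± 0.86), in the authors' deposited table. Whether Phlda2 differs from its neighbours was not tested, since the samples are shared and no value per sample is available.

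Slc38a4 is 1 of 6 genes listed for noncanonical imprinting, all of which had an adjusted p. The other 5 did not pass, so 16.7% of the list were called beside 1.98% of all genes, a share that rests on 1 gene. Gab1, a signalling adaptor, stood at -0.14 ± 0.14, the chromatin reader gene Jade1 at -0.07 ± 0.13 and Smoc1 at -0.01 ± 0.25 in the authors' deposited table. Sfmbt2, a Polycomb-related gene needed in the placenta, stood at 0.06 ± 0.17 in the authors' deposited table. Xist, the RNA that silences an X chromosome and is imprinted before implantation, stood at 0.12 ± 0.14, and its antisense gene Tsix at 0.41 ± 0.17 (adjusted p = 0.250), in the authors' deposited table. Strand is not marked by the kit, so reads from the shared stretch, 32.6% of the exon bases of Tsix and 11.0% of those of Xist in the later annotation, cannot be assigned to 1 of them.

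**Figure D4:**
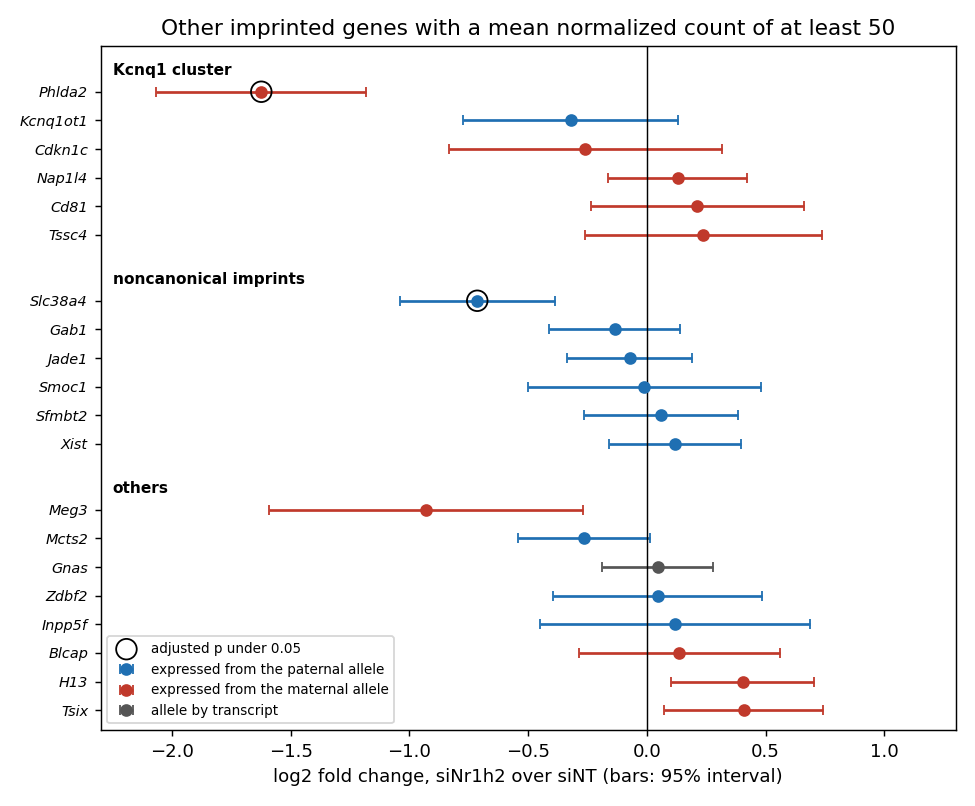
Log2 fold change (points) with 95% interval (bars), siNr1h2 over siNT, for the 20 listed imprinted genes outside the members' clusters whose mean reached 50 normalized counts, coloured by the expressed allele; black rings mark an adjusted p under 0.05. Phlda2 and Slc38a4 carry rings, and the interval of each of the other 5 Kcnq1 cluster genes and 5 noncanonical genes crosses 0.

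Further imprinted genes were not called, and of those named next Meg3, H13 and Qpct had an unadjusted p under 0.05. Meg3, a maternally expressed long RNA of the Dlk1-Dio3 cluster, stood at -0.93 ± 0.34 (1.20 to 3.01 times lower, adjusted p = 0.140) and its neighbour Rian at 0.30 ± 0.50 in the authors' deposited table. The signal peptide peptidase gene H13 stood at 0.40 ± 0.15 (adjusted p = 0.170), and Mcts2, a paternally expressed retrogene within an intron of H13, at -0.26 ± 0.14 (adjusted p = 0.411), in the authors' deposited table. Mcts2 may share reads with its parent gene on the X chromosome and is uncertain. Qpct stood at -2.76 ± 1.29 in the authors' deposited table, at a mean of 5.95 and without an adjusted p. Trappc9 stood at 0.55 ± 0.41, Ano1 at -0.89 ± 0.86, Nnat at -0.87 ± 0.81 and Nespas at 0.57 ± 0.53 in the authors' deposited table. Nespas shares 31.4% of its exon bases with the opposite strand gene Gnas, which stood at 0.05 ± 0.12 in the authors' deposited table.

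The factors that protect imprints were transcribed at levels from low (Zfp57, mean normalized count 30.9) to very high (Dppa3) in the authors' deposited table. Of 12 listed factors, all with values, 0 were called by DESeq2 in the authors' deposited table and 2 had an unadjusted p under 0.05, close to the 1.98% and 13.3% of all genes, with 6 below 0 and 6 above and a median log2 fold change of -0.04. Arid4b, a retinoblastoma-binding protein, had the smallest p, at -0.48 ± 0.19 (adjusted p = 0.216), in the authors' deposited table. Dppa3 (Stella), a maternal protein that shields the oocyte-derived genome from demethylation, had the highest mean normalized count of all genes in the authors' deposited table, 147367, and stood at -0.26 ± 0.11 (adjusted p = 0.271). With fold changes centred on ribosomal protein genes, a shift of 0.11 on the log2 scale, Dppa3 stood at -0.36 and passed (adjusted p = 0.0300). Eed, a Polycomb subunit, stood at -0.22 ± 0.13 and Trim28 at -0.16 ± 0.12 in the authors' deposited table. Uhrf1, which guides the maintenance methyltransferase to newly copied DNA, stood at 0.23 ± 0.17 and Dnmt1, that methyltransferase, at 0.19 ± 0.20 in the authors' deposited table.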

How the data were processed

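The members and gene lists were chosen with earlier results of these data known. RNA was made into full-length cDNA libraries from polyadenylated RNA (SMART-Seq v4 and Nextera XT), per the labels' protocols. The submitters' processing notes name the build mm9 and, without roles, DESeq2, edgeR, Cufflinks 2.2.1, HTSeq 0.12.4, STAR and RSEM. The authors' deposited table gives, per gene, a signal value (by its header the normalized count averaged over the 4 samples), a log2 fold change and its standard error, a Wald score, and the p-value and adjusted p-value. An adjusted p was given for 12069 genes and not for 1589 with means up to 8.00. No column of per-sample values was left out (0), so no count test was run and depth per sample is unknown.

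Genes with an adjusted p under 0.05 were called. Folds are powers of 2 with intervals of 1.96 standard errors. Every member and each cluster partner with values is named. Per other list and allele, each called gene and up to 6 uncalled genes of smallest p are named. Rian and the genes around Phlda2 outside that rule were named after their values were seen. Alternatives changed the threshold, filter, adjustment, minimum fold, centring and reference distribution. The adjustment steps were tested on simulated data. Only centring on the median of all genes was included there, so both centrings used here were not tested in that way. Exon lengths and overlaps came from GENCODE M21 (GRCm38), promoters from RefSeq (GRCm38.p6). Python 3.11.15, pandas 2.3.3, scipy 1.17.1 and matplotlib 3.10.9 were used.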

Additional observations from a re-analysis of the deposited data

How the results depend on the processing

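No alternative called a member. The smallest adjusted p of a member was 0.354 as deposited, so a threshold of 0.1 could not add a call. Without a filter on the mean count it rose to 0.394. A filter at a mean of 50 and both centrings could have added a call and did not (smallest adjusted p 0.106, under centring). Centring was the alternative that recomputed fold changes, and 16 of 18 member values kept their sign under it. The exceptions are Plagl1, at 0.025 with centring on genes of a mean of at least 500, and Grb10, at -0.10 with centring on ribosomal protein genes. Phlda2 and Slc38a4 stayed lower and called under both centrings. Under Holm adjustment 1 imprinted gene outside the set was called, Phlda2, and 49 of all genes. Under a t distribution with 2 degrees of freedom 0 imprinted genes and 0 of all genes were called (smallest adjusted p 0.948, 68 genes at an unadjusted p under 0.05). In that design the threshold over all genes was out of reach, so it says nothing on stability. Centring on ribosomal protein genes called 1 imprint keeper, Dppa3, and 490 of all genes, 454 lower and 36 higher, and centring on genes with a mean of at least 500 gave 142 and 82, beside 184 and 55 as deposited. Thresholds of 0.01 and 0.1 gave 109 and 395 called genes in all. No paired analysis was possible because the values are 1 comparison over all samples with no value per sample; leaving out a replicate and a second count tool were not run for the same reason.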
